A study of Mus musculus with 12 samples.

Results

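The genes described here are 42 genes of the G1/S transition and of DNA replication, chosen by symbol from the 35976 symbols of the count files. The RNA came from Lin-ckit+scal1+ cells of mice, labelled haematopoietic stem cells (HSCs), a gate that holds multipotent progenitors beside stem cells. The animals were knockout (KO) for Cd38, which encodes a membrane enzyme that consumes NAD, or wild type (WT). The 12 libraries formed 6 groups of 2, namely KO and WT cells of animals aged 2 months after 24 hours of ex vivo cytokine stimulation, freshly isolated KO and WT cells of animals aged 24 months, and freshly isolated KO and WT cells of animals aged 2 months. These are called stimulated, old fresh and young fresh. The cytokines, the KO allele and whether a library came from 1 animal or a pool are not stated in the labels, so p-values measure the spread between these libraries, which may be technical.

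Before a cell copies its DNA, the origin recognition complex (Orc1, Orc6) with Cdc6 and Cdt1 loads the MCM helicase (Mcm2 to Mcm7) on origins in G1. Cyclin E (Ccne1, Ccne2) with its kinase then drives entry into S phase, and the transcription factor E2F1 belongs to the family that switches on many of these genes. Mcm10, Cdc45 and the GINS complex turn the loaded ring into an active helicase, and polymerases, the sliding clamp and its loader copy the strands. Stem cells of adult marrow mostly rest outside the cycle, and cytokines in culture drive them into it.

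All 42 genes had counts in every stimulated library, and 39 to 42 of them in each fresh library. Total counts were 2692245 to 3249721 per stimulated library, 3796591 to 5164720 per old fresh library and 1600155 to 1963635 per young fresh library. Of all gene symbols, 13163 to 13450 had counts in each stimulated library and 9116 to 10231 in each fresh one. With every library thinned to the smallest total, the expected numbers were 12736 to 12973 and 9047 to 9957. Levels are CPM, the count per 1000000 counts of a library after TMM scaling, and each pair of values below gives replicates 3 and 4 of a KO group or 1 and 2 of a WT group. The fresh libraries varied far more than the stimulated ones. The main fit, of all 12 libraries, gives each gene 1 spread shared by both, so its p-values for comparisons among fresh cells can be too small. The median difference of the 42 genes between the replicates of a group, without sign, was log2 0.22 in stimulated KO, 0.20 in stimulated WT, 0.58 in old fresh KO, 0.98 in old fresh WT, 0.77 in young fresh KO and 0.91 in young fresh WT. Young fresh WT replicate 1 had no Xist count and 200.1 CPM of Y-linked genes, while the other 11 libraries had 198 to 745 CPM of Xist, so the cells of that group were of different sex. Cd38 itself was counted in every library, with 2.32 to 62.8 CPM in KO and 0.998 to 74.4 CPM in WT, and a 3′ tag may lie outside a deleted part, so it does not check the genotype. For 8 of the 42 genes (Ccne2, Chaf1a, Fen1, Gins2, Mcm7, Rfc2, Rfc4 and Rfc5) another gene's exon lies within the last 1000 bases in the GENCODE annotation, on the opposite strand in each case, and the strand setting of the counting was not given, so reads of these pairs cannot be told apart. Mcm7 also hosts miRNA genes on its own strand, and Tyms has a pseudogene in the files.

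The E2F family binds short GC-rich words, and these words are shown because they are a sequence feature that many of the genes share and the choice of genes did not use. RefSeq promoters of build GRCm38.p6, 250 bases before to 50 bases after a start site, were matched to 35 of the 42 genes and gave 40 promoters; Mcm4, Gins1, Gins2, Gins4, Pole, Rfc2 and Ccne2 had no entry in the table used. The words searched on both strands were TTTGGCGC, TTTCGCGC, TTTCCCGC and TTTGCCGC. They were found in 13 of the 40 promoters (32.5%), and in 744 of all 32851 promoters of the same length (2.26%). The word CCAAT was in 57.5% of these promoters against 37.4% of all, and TTTGAA, the core of the element common in G2/M genes, was in 10% against 17.9%. These matches are descriptions of sequence and do not show binding. The 4 genes below were printed from the 5 that held at least 2 E2F words, by the smallest p for stimulation, as 170 bases directly before the start site, 5′ to 3′ on the gene's strand, with the E2F words in capitals on either strand; neighbouring words overlap in Mcm5 and Mcm6, and the other word of Mcm7 and of Rfc3 begins at or after the start site.
Mcm7, chr5:138171884-138172053, minus strand: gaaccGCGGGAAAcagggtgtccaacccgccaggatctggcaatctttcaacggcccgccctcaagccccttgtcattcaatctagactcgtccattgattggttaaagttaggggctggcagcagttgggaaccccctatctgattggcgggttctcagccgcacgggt
Mcm5, chr8:75109339-75109508, plus strand: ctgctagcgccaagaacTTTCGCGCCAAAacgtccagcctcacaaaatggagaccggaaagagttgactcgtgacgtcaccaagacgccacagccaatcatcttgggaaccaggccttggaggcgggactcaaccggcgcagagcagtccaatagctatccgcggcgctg
Mcm6, chr1:128359706-128359875, minus strand: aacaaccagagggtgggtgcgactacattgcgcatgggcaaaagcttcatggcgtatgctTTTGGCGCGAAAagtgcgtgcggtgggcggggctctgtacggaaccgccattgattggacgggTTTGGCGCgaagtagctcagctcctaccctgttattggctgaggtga
Rfc3, chr5:151651209-151651378, minus strand: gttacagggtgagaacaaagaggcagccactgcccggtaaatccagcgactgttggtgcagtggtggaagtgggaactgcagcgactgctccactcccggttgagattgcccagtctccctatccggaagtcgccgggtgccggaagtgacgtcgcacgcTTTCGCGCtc
The 13 genes were Mcm3, Mcm5, Mcm6, Mcm7, Orc1, Cdc6, Cdt1, Pola1, Pold1, Rfc3, Gins3, Lig1 and Uhrf1. They include 7 of the 9 origin licensing genes with a promoter in the table, and none of the 5 nucleotide supply genes, all of which had one.

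Summed over the 42 genes, the level was 5238 and 4697 CPM in stimulated KO, with 5743 and 6116 CPM in stimulated WT, 4192 and 5248 CPM in old fresh KO, 3322 and 3127 CPM in old fresh WT, then 4633 and 3486 CPM in young fresh KO and 4154 and 4234 CPM in young fresh WT. Stimulated WT lay highest and old fresh WT lowest in this sum, and old fresh KO replicate 4 lay just above both stimulated KO libraries. The score, the mean log2 CPM of the 42 genes, weights each gene equally. It was 6.21 and 6.07 in stimulated KO, 6.32 and 6.39 in stimulated WT, 5.52 and 6.05 in old fresh KO, 4.97 and 5.08 in old fresh WT, then 5.51 and 4.95 in young fresh KO and 5.58 and 5.47 in young fresh WT. All 4 stimulated libraries scored above all 8 fresh ones, with old fresh KO replicate 4 just below the lowest of them. The stimulated libraries also had counts for more genes at equal depth, and the part of this in the score was not tested. Both measures are descriptions with no test.

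**Figure D1:**
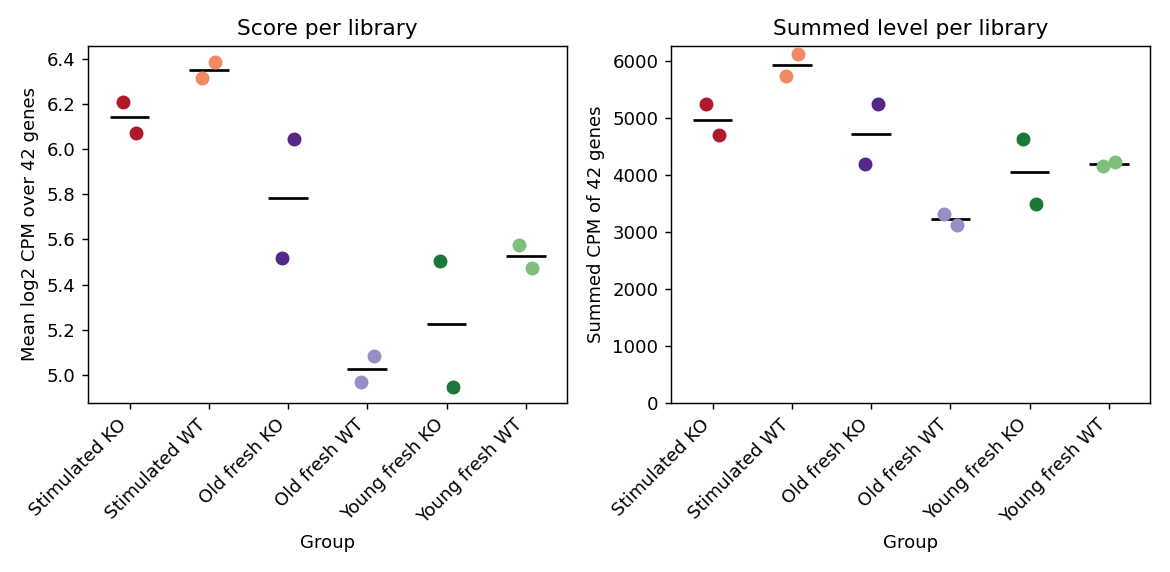
The mean log2 CPM of the 42 genes (left, on an axis that does not start at 0) and their summed CPM (right) are plotted for each library (points) with the group mean (line), for 2 libraries a group. The 4 stimulated libraries have the highest scores, 6.07 to 6.39, and old fresh WT the lowest sum, 3127 and 3322 CPM.

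Most genes had similar levels in both replicates of a stimulated group, while in fresh cells low genes came and went: Orc1, Mcm10, Gins4, Pole, Ccne2, E2f1 and Slbp each had 0 counts in at least 1 fresh library. Abundant helicase genes were counted throughout. Mcm3 averaged 356 ± 56.5 CPM in stimulated KO, 425 ± 36.3 in stimulated WT, 351 ± 29.6 in old fresh KO, 245 ± 8.35 in old fresh WT, 413 ± 152 in young fresh KO and 410.3 ± 67.3 in young fresh WT (SD, n = 2 each). The Mcm3 levels of young fresh cells overlapped those of stimulated cells.

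**Figure D2:**
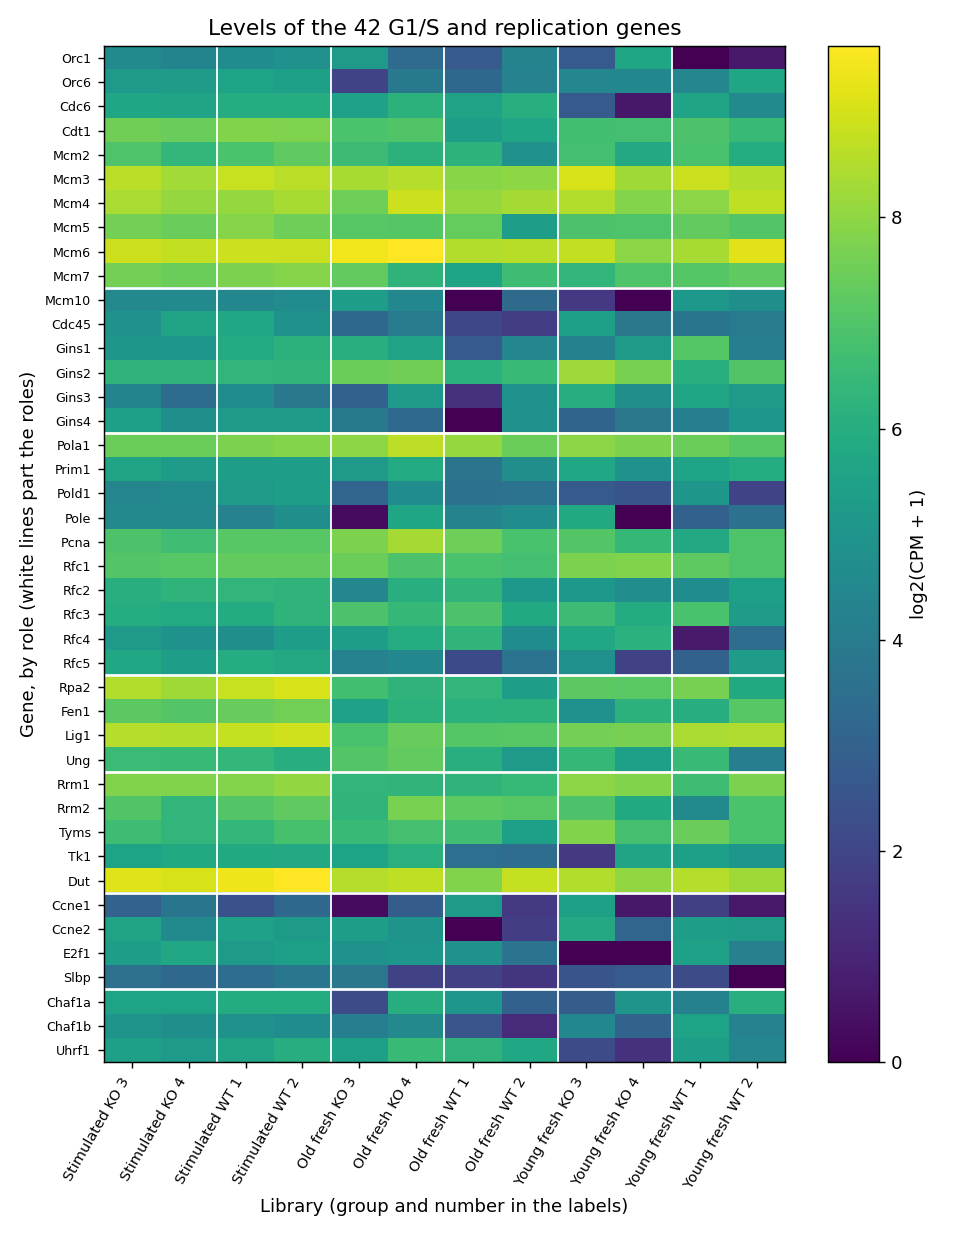
Each cell gives log2(CPM + 1) of 1 gene (rows, grouped by role with white lines) in 1 library (columns, with the number of the labels), from dark at 0 to yellow. The stimulated columns look alike, and the dark cells of low genes such as E2f1 in young fresh KO lie in the fresh columns.

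Stimulation was compared with young fresh cells, averaged over KO and WT, to see which replication genes change when stem cells are driven out of rest. Rpa2, Dut, E2f1 and Uhrf1 rose and none of the 42 fell, so 4 of 42 passed an adjusted p of 0.05. Over all 11548 genes tested 2.81% passed, 1.31% as higher and 1.51% as lower. The fitted change was positive for 34 of the 42, with a median log2 fold change of 0.58, beside 0.27 for all genes tested. Every stimulated library lay above every young fresh one for 10 of the 42 and below for 1, Gins3, against 14.6% and 5.16% of all genes. Markers moved with this comparison too: the summed level of S100a8, S100a9 and 10 other genes of mature blood cells was 805 to 1069 CPM in stimulated KO, 1082 to 1545 in stimulated WT, 4319 to 5813 in young fresh KO and 4528 to 8656 in young fresh WT, and Cd3e, Ms4a1, Cd4 and Cd8a were at 0 in all of them. S100a8 and S100a9 made up most of this sum. Of the 4 genes of this list tested, 2 were called lower and 2 had positive estimates. Nkg7 had 141 and 93.7 CPM in stimulated KO and 227 and 145 in stimulated WT. In young fresh cells it had 34.7 and 18.3 CPM in KO and 15.1 and 13.7 in WT. Summed myeloid progenitor markers were 1585 to 2575 CPM in stimulated KO and 2662 to 3050 in stimulated WT, against 119 to 171 in young fresh KO and 146 to 241 in young fresh WT, with 4 of 8 called higher. Summed lymphoid-primed markers were 206 to 310 CPM in stimulated KO and 843 to 1661 in stimulated WT, against 43.9 to 119 in young fresh KO and 117 to 209 in young fresh WT, with 2 of 7 called higher and Dntt and Il7r at 0 in both young fresh groups. Summed HSC markers were 1859 to 1898 CPM in stimulated KO and 1733 in both stimulated WT libraries, against 2444 to 2491 in young fresh KO and 2503 to 2740 in young fresh WT, with 2 of 11 called lower. Of their 11 estimates 10 were negative and 1, Cd34, positive, with a median log2 fold change of -1.04. Cd34 is a large part of these sums. It had 564 and 371 CPM in stimulated KO and 841 and 795 in stimulated WT, against 437 and 433 in young fresh KO and 339 and 396 in young fresh WT. The sums therefore understate the fall of the other markers. The part of these cells in the gene changes was not tested. In bulk RNA, fewer cells of a type and less RNA per cell cannot be told apart.

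**Figure D3:**
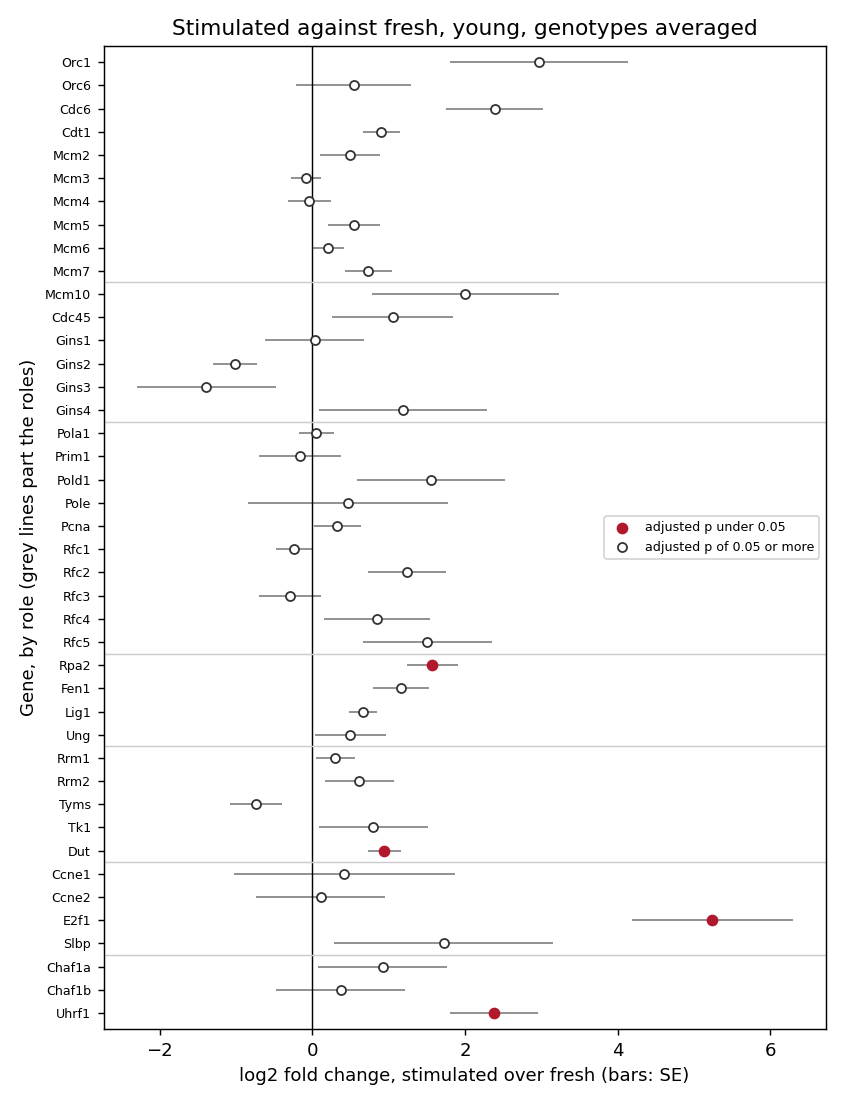
Log2 fold changes of stimulated over young fresh cells, averaged over genotypes, are shown for the 42 genes with their SE (bars), with grey lines between roles and filled points for an adjusted p under 0.05. Most points lie right of 0; the E2f1 value depends on the prior count, because young fresh KO had 0 counts.

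Among the genes of origin licensing, Cdc6, which loads the helicase with the origin recognition complex, had 50.8 and 48.0 CPM in stimulated KO and 61.5 and 61.1 in stimulated WT, against 5.61 and 0.524 CPM in young fresh KO and 47.7 and 23.4 in young fresh WT. All stimulated libraries were higher, with the gap widest in KO, and the averaged log2 fold change was 2.39 ± 0.64 (SE; adjusted p = 0.061). Cdt1, its partner in loading, had 183 and 171 CPM in stimulated KO and 223 and 216 in stimulated WT, against 103 and 106 in young fresh KO and 121 and 90.8 in young fresh WT. It too was above all young fresh libraries, by 0.90 ± 0.24 (adjusted p = 0.0648), which missed the threshold. The 6 subunits of the helicase ring did not pass, and their log2 fold changes were 0.49 ± 0.39 for Mcm2, -0.08 ± 0.20 for Mcm3, -0.04 ± 0.28 for Mcm4, 0.54 ± 0.34 for Mcm5, 0.21 ± 0.21 for Mcm6 and 0.73 ± 0.31 for Mcm7. Values near 0 with small errors for Mcm3 and Mcm4 stood beside the larger estimate for Mcm7. Orc1 had 23.2 and 19.5 CPM in stimulated KO and 25 and 28.1 in stimulated WT, against 5.61 and 49.7 in young fresh KO and 0 and 0.571 in young fresh WT, where both libraries together held 1 count. In WT the ratio was 88.7 (95% interval 15.7 to 3525, counting error only), while in KO the 2 young fresh libraries lay on either side of the stimulated ones. The score of the 10 licensing genes was 7.10 and 6.90 in stimulated KO and 7.23 and 7.24 in stimulated WT, against 6.27 and 6.09 in young fresh KO and 6.28 and 6.38 in young fresh WT.

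The 6 helicase activation genes had estimates of both signs. Gins2, a GINS subunit, had 75.3 and 76.5 CPM in stimulated KO and 79.8 and 77.3 in stimulated WT, against 297 and 203 in young fresh KO and 65.2 and 129 in young fresh WT. The stimulated values were close to each other and below the KO fresh ones, while the WT fresh ones spread around them (log2 -1.01 ± 0.28, adjusted p = 0.0759). Gins3, another subunit, had the largest estimated decrease of the 42 genes, with 19.3 and 9.60 CPM in stimulated KO and 24.3 and 13.5 in stimulated WT, against 62.3 and 26.2 in young fresh KO and 48.9 and 36.0 in young fresh WT (log2 -1.39 ± 0.92, adjusted p = 0.469). Mcm10, which aids the switch to an active helicase, had 22.1 and 23.5 CPM in stimulated KO and 21.6 and 24.1 in stimulated WT, against 2.04 and 0 in young fresh KO and 33.9 and 26.8 in young fresh WT. Its stimulated values lay below both young fresh WT libraries and above both young fresh KO ones. Gins1, Gins4 and Cdc45, the remaining parts of the helicase, had log2 fold changes of 0.03 ± 0.65, 1.18 ± 1.10 and 1.05 ± 0.79, and none of the 6 genes passed.

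At the fork, none of the 10 genes of the polymerases, the primase, the clamp and the clamp loader passed. Rfc2, a clamp loader subunit, had 63.7 and 76.5 CPM in stimulated KO and 80.2 and 76.6 in stimulated WT, against 34.2 and 25.1 in young fresh KO and 24.5 and 41.7 in young fresh WT. All 4 stimulated values were above all 4 fresh ones (log2 1.24 ± 0.51, adjusted p = 0.224). Rfc5, of the same complex, had 53.3 and 41.1 CPM in stimulated KO and 61.9 and 55.5 in stimulated WT, against 27.6 and 2.62 in young fresh KO and 6.90 and 38.3 in young fresh WT (adjusted p = 0.382). Pcna, the sliding clamp itself, changed by an estimated log2 0.33 ± 0.30, and Pola1 of polymerase alpha by 0.05 ± 0.23. The other estimates were 1.56 ± 0.97 for Pold1, 0.47 ± 1.31 for Pole, -0.16 ± 0.53 for Prim1, -0.24 ± 0.23 for Rfc1, -0.29 ± 0.41 for Rfc3 and 0.84 ± 0.69 for Rfc4. The errors were widest for Pole and Pold1.

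Among the genes of single-strand binding and strand maturation, Rpa2 rose. It encodes a subunit of the protein that coats single-stranded DNA, at chr4:132768360-132778746 in mm10. Its level was 365 and 306 CPM in stimulated KO and 452 and 532 in stimulated WT, against 147 and 144 in young fresh KO and 200.1 and 57.1 in young fresh WT. No stimulated library overlapped a fresh one, and the log2 fold change was 1.57 ± 0.33 (adjusted p = 0.0185). Lig1, the ligase that joins Okazaki fragments, had 374 and 361 CPM in stimulated KO and 437 and 487 in stimulated WT, against 192 and 202 in young fresh KO and 338 and 353 in young fresh WT. Its libraries did not overlap either, and the change of 0.66 ± 0.19 missed the threshold (adjusted p = 0.0788). Fen1, the flap nuclease of the same step, was estimated at 1.17 ± 0.37 (adjusted p = 0.126), and Ung, which removes uracil from DNA, at 0.50 ± 0.46. All 4 genes of this role had positive estimates.

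In nucleotide supply, Dut rose; it encodes the dUTPase that keeps uracil out of DNA, at chr2:125247248-125259049. Dut had 573 and 528 CPM in stimulated KO and 657 and 772 in stimulated WT, against 361 and 264 in young fresh KO and 376 and 306 in young fresh WT. Every stimulated value was above every fresh one, with a log2 fold change of 0.94 ± 0.21 (adjusted p = 0.0262). Tyms, thymidylate synthase, went the other way in its estimate, with 98.8 and 79.5 CPM in stimulated KO and 81.5 and 111 in stimulated WT, against 220.0 and 110.5 in young fresh KO and 172 and 118 in young fresh WT (log2 -0.74 ± 0.34, adjusted p = 0.273). Young fresh KO replicate 4 lay within the range of the stimulated values. The ribonucleotide reductase subunits Rrm1 and Rrm2 were estimated at 0.30 ± 0.25 and 0.62 ± 0.45, and thymidine kinase Tk1 at 0.80 ± 0.71, none past the threshold.

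The remaining calls were E2f1 among the G1/S control genes and Uhrf1, which recruits the maintenance DNA methyltransferase to newly copied DNA. E2f1, at chr2:154559400-154569892, had 40.3 and 53.3 CPM in stimulated KO and 36.3 and 41.9 in stimulated WT, against 0 and 0 in young fresh KO and 44.5 and 17.1 in young fresh WT. Its adjusted p was 0.0145, and the difference lay in KO: a total of 307 counts in stimulated KO stood against 0 in young fresh KO, at least 59.6-fold higher with 3 counts over the group as the floor. In WT the stimulated values lay between the 2 fresh ones. Uhrf1, at chr17:56303337-56323486, had 43.9 and 34.8 CPM in stimulated KO and 48.6 and 63.4 in stimulated WT, against 3.57 and 1.57 in young fresh KO and 40.8 and 21.1 in young fresh WT. Its log2 fold change was 2.38 ± 0.58 (adjusted p = 0.0377), again with the widest gap in KO. Slbp, which binds histone mRNA, had 10.8 and 8.28 CPM in stimulated KO and 9.98 and 12.5 in stimulated WT, against 4.59 and 5.76 in young fresh KO and 3.76 and 0 in young fresh WT. It had few counts in every library, with an estimate of 1.72 ± 1.44. Cyclin E genes gave 0.42 ± 1.45 for Ccne1 and 0.11 ± 0.84 for Ccne2. Chaf1a, a histone chaperone that follows the fork, had 47.2 and 46.4 CPM in stimulated KO and 58.9 and 59.1 in stimulated WT, against 6.12 and 30.4 in young fresh KO and 17.6 and 66.8 in young fresh WT (adjusted p = 0.619), and its partner Chaf1b was estimated at 0.37 ± 0.85.

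Where a library is left out, the other library of its group stands alone and is assumed to vary like the other groups. Each of these 4 calls was lost when particular single libraries were left out, while the estimate stayed between 0.85 and 1.08 for Dut and between 1.26 and 2.16 for Rpa2. Rpa2 lost its call without young fresh KO replicate 3 (adjusted p = 0.0577) or 4 (0.0575), E2f1 without stimulated KO replicate 4 (0.0589), Dut without either young fresh WT library, young fresh KO replicate 4, stimulated WT replicate 2 or stimulated KO replicate 3 (0.0600 to 0.107), and Uhrf1 without any of the 8 libraries except young fresh KO replicate 3 (0.0593 to 0.193). Without young fresh WT replicate 1, the library with no Xist, E2f1 and Rpa2 still rose and Gins2 fell (adjusted p = 0.0375), and limma voom weighted by group called Rpa2 and Dut higher and Gins2 lower (adjusted p = 0.0365).

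**Figure D4:**
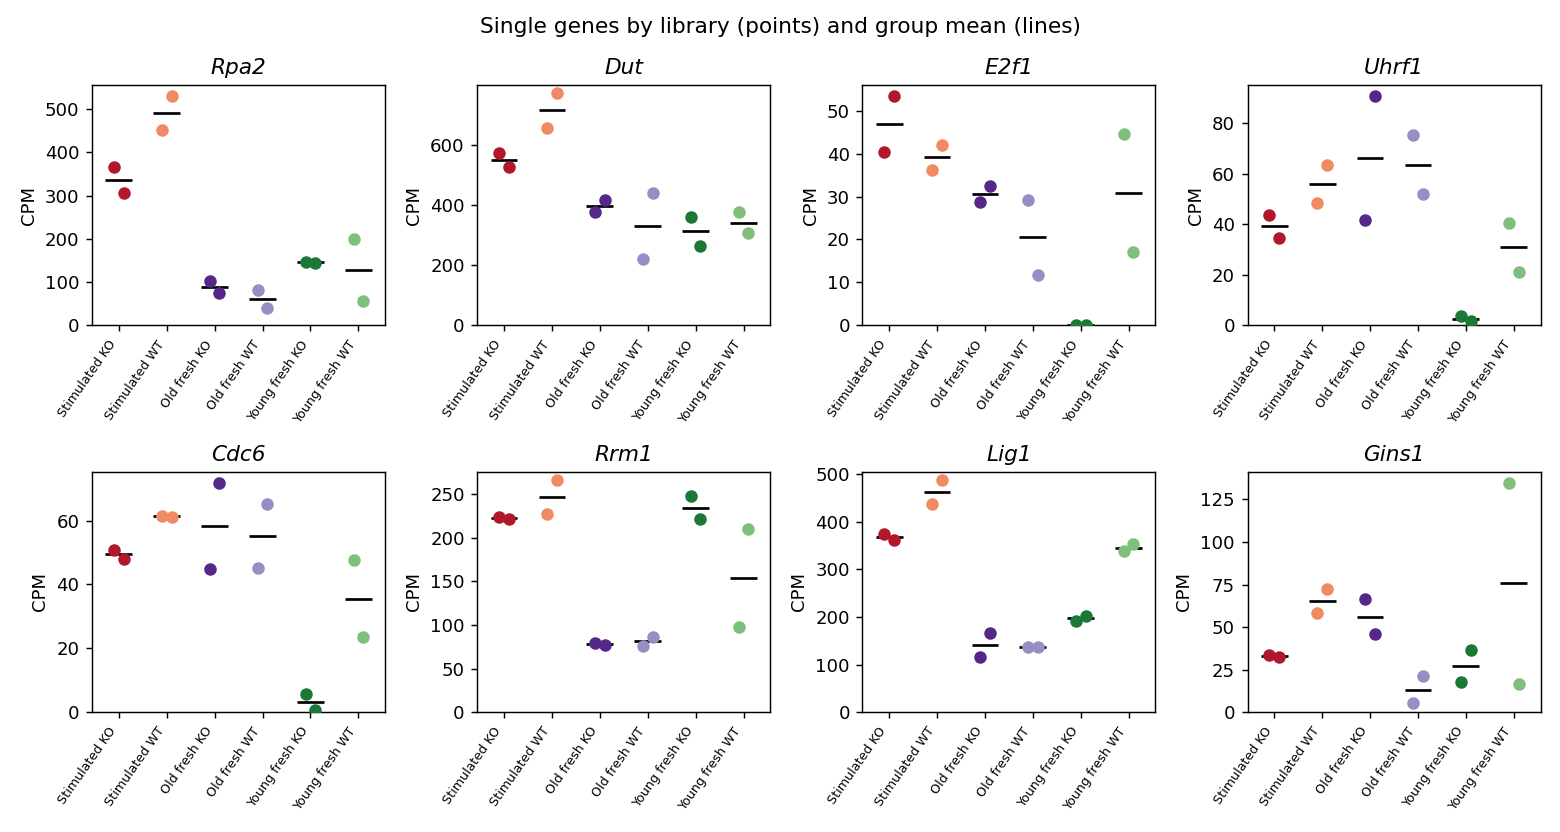
CPM of 8 genes in each library (points) with the group mean (line), 2 libraries a group, each panel on its own linear axis from 0. Rpa2 and Dut are highest in stimulated cells, E2f1, Uhrf1 and Cdc6 are lowest in young fresh KO, Rrm1 is lowest in old fresh cells and Gins1 has lower values in stimulated KO than in stimulated WT.

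Taken within each genotype, stimulation gave fewer calls. In KO, 1 of 42 passed, E2f1 (adjusted p = 0.0197), beside 0.649% of all genes, and Uhrf1 was estimated at 3.91 ± 0.88 (adjusted p = 0.0593). The E2f1 call was lost without young fresh KO replicate 3 (adjusted p = 0.0544) or stimulated KO replicate 3 (0.0616) or 4 (0.0754). In WT, 0 of 42 passed edgeR's test, beside 0.797% of all genes. DESeq2 called 2 of the 42, and its share over all genes is not given. An unadjusted p under 0.05 in edgeR was found for 5 of the 42 and for 1095 of all 11548 genes. The smallest p in WT belonged to Rpa2, with a log2 fold change of 1.94 ± 0.48 (adjusted p = 0.102), and to Dut, with 1.07 ± 0.30 (adjusted p = 0.175). Without young fresh WT replicate 1 the estimate for Rpa2 in WT was 3.11 (adjusted p = 0.0238), but young fresh WT was then 1 library, with its spread taken from the other groups. The median log2 fold change in KO was 0.51, and 0.82 without young fresh KO replicate 3. The test of the difference between the genotypes passed in edgeR for none of the 42 (0% of all genes). DESeq2 called 1 of the 42, E2f1, and its share over all genes is not given. An unadjusted p under 0.05 in edgeR was found for 6 of the 42 and for 577 of all 11548 genes. E2f1 had the smallest p, with an adjusted p of 0.415, followed by Orc1 with 0.885.

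Other genes of the cycle were counted from lists set beside the 42. Of 61 other replication and G1/S genes tested, 2 rose and 1 fell, with a median log2 fold change of 0.43. Dnmt1, the maintenance DNA methyltransferase, averaged 254 ± 18 CPM in stimulated KO and 302 ± 8.91 in stimulated WT, against 39.9 ± 11 in young fresh KO and 78.6 ± 0.304 in young fresh WT (SD, n = 2 each), and rose by 2.31 ± 0.25 (adjusted p = 0.000134). Chtf8, a subunit of an alternative clamp loader whose end overlaps Has3 on the other strand, fell by 2.64 (adjusted p = 1.45e-05), and Rbbp4, a histone-binding subunit of the chromatin assembly factor, rose by 0.64 (adjusted p = 0.0336). Of 42 G2/M and mitosis genes, 6 rose and none fell, with a median of 0.81; the smallest p belonged to Plk1, a mitotic kinase that rose by 2.41 ± 0.39 (adjusted p = 0.00296), and to Birc5 (survivin), which rose by 1.57 ± 0.27 (adjusted p = 0.00504). None of the 19 quiescence genes and CDK inhibitors passed (5 at an unadjusted p under 0.05, beside 2046 of all 11548 genes), with a median of 0.04.

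KO and WT were then compared within stimulated cells, in a fit of the 4 stimulated libraries alone, to see whether loss of Cd38 goes with the level of replication genes after stimulation. None of the 42 genes passed edgeR's test, while 1.23% of the 10494 genes tested did, and DESeq2 called 0 of the 42. An unadjusted p under 0.05 in edgeR was found for 7 of the 42 and for 1143 of all 10494 genes. The estimates leaned to lower values in KO: 34 of 42 were negative, with a median log2 fold change of -0.21, beside -0.00 for all genes tested. Both KO libraries lay below both WT libraries for 22 of the 42 and above for 1, with 19 overlapping, against 22.6% below and 19.5% above over all genes. The median stayed between -0.30 and -0.13 when each library was left out in turn, with -0.13 without KO replicate 4.

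**Figure D5:**
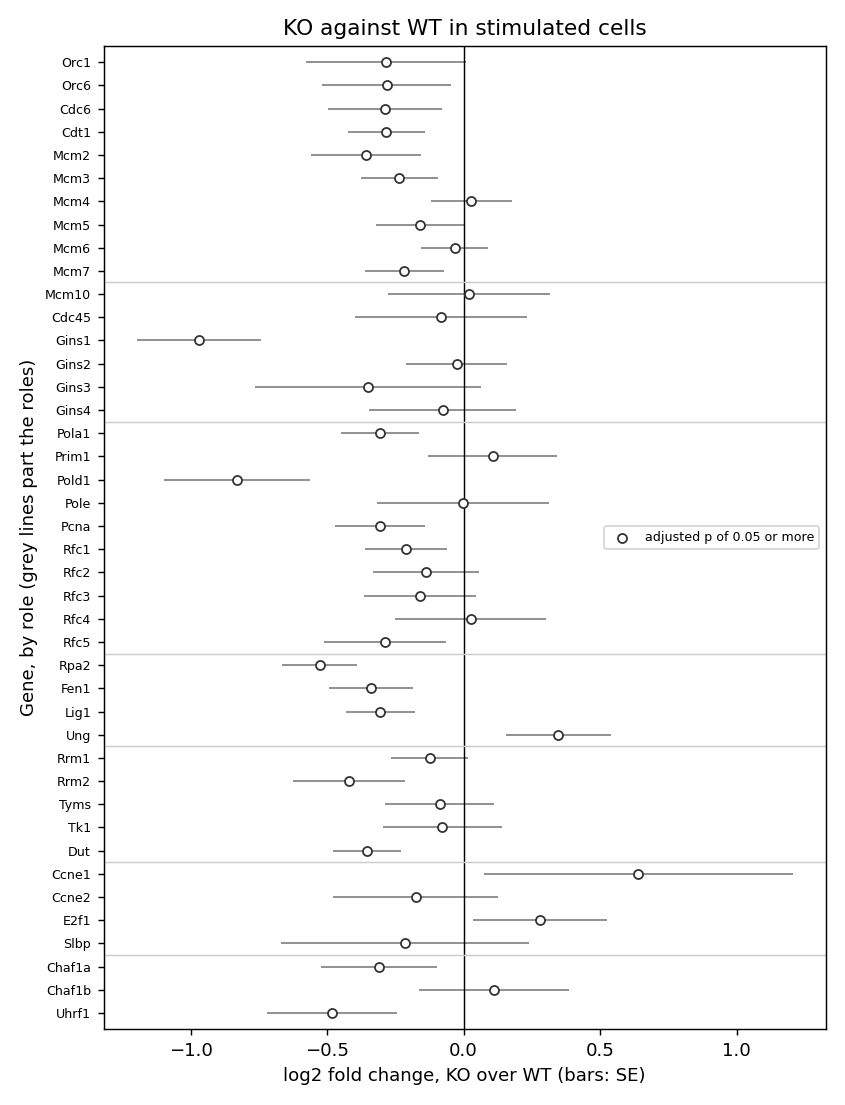
Log2 fold changes of stimulated KO over stimulated WT are shown for the 42 genes with their SE (bars), with grey lines between roles; no gene had an adjusted p under 0.05. Of the 42 points 34 lie left of 0, and Gins1 and Pold1 lie farthest left.

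Gins1, a GINS subunit at chr2:150909556-150931280, had the smallest p, with 33.4 and 32.5 CPM in stimulated KO, compared with 58.6 and 72.6 CPM in stimulated WT. The WT values were far above the KO ones, with a log2 fold change of -0.97 ± 0.23 (adjusted p = 0.056). Rpa2, already given above, differed by -0.53 ± 0.14 (adjusted p = 0.0902). Pold1, the catalytic subunit of the polymerase that copies mainly the lagging strand, had 19.9 and 22.5 CPM in stimulated KO and 36.9 and 39.6 in stimulated WT (log2 -0.83 ± 0.27, adjusted p = 0.196). Dut was estimated at -0.35 ± 0.12 (adjusted p = 0.253), Lig1 at -0.31 ± 0.13 (adjusted p = 0.371) and Fen1 at -0.34 ± 0.15 (adjusted p = 0.424), each with both KO libraries below both WT libraries. Fen1 had 146 and 133 CPM in stimulated KO, with 167 and 192 CPM in stimulated WT. Limma voom weighted by group called Gins1, Rpa2 and Dut lower in KO, and with no filter on low counts edgeR called Gins1 and Rpa2. Without stimulated WT replicate 1 edgeR called the same 3 genes as limma, but WT was then 1 library and the spread rested on the 2 KO libraries and the trend over all genes; without any other stimulated library none of the 3 passed (adjusted p 0.204 to 0.83).

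By role, the median difference was -0.26 over the 10 licensing genes, -0.08 over the 6 helicase activation genes, -0.19 over the 10 polymerase and clamp genes, -0.32 over the 4 genes of strand maturation, -0.12 over the 5 of nucleotide supply, 0.05 over the 4 of G1/S control and -0.31 over the 3 of chromatin assembly and methylation. E2f1, whose product acts on many of the others, was 0.28 ± 0.24, and Ccne1 was 0.64 ± 0.57, the highest estimate of the 42 from few counts. Of the other lists, 1 of 42 G2/M genes passed, Top2a (topoisomerase II), which had 746 ± 55.6 CPM in stimulated KO, compared with 1083 ± 97.2 CPM in stimulated WT (SD, n = 2 each) and fell by 0.51 ± 0.12 (adjusted p = 0.0443); the median of that list was -0.26. None of the 61 other replication genes passed (6 at an unadjusted p under 0.05, beside 1143 of all 10494 genes), with a median of -0.18. Of the 19 quiescence genes and CDK inhibitors, Fhl1 rose (log2 2.03 ± 0.46, adjusted p = 0.0461). Markers of blood lineages also differed between the genotypes. Summed lymphoid-primed markers were 206 to 310 CPM in stimulated KO and 843 to 1661 in stimulated WT, with 6 of the 7 tested lower in KO; megakaryocyte markers were 500.3 to 558 CPM in stimulated KO and 160 to 271 in stimulated WT, with 3 of the 6 tested higher in KO; and HSC markers were 1859 to 1898 CPM in stimulated KO and 1733 in both stimulated WT libraries, with Mecom and Mllt3 higher and Cd34 lower in KO. The HSC sum includes Cd34, which had 564 and 371 CPM in stimulated KO and 841 and 795 in stimulated WT. Of the 11 HSC markers 10 had positive estimates and Cd34 a negative one, with a median log2 difference of 0.86, so the sums understate the difference of the other markers. All 11 had an unadjusted p under 0.05, beside 1143 of all 10494 genes. The part of all these markers in the lower replication estimates was not tested.

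In young fresh cells none of the 42 genes passed between KO and WT, where 0.0260% of all genes did, while DESeq2 called 5 of the 42. An unadjusted p under 0.05 in edgeR was found for 8 of the 42 and for 1236 of all 11548 genes. Both KO libraries lay above both WT libraries for 7 and below for 8, against 13.9% and 16.6% of all genes, and the median log2 difference of -0.14 became 0.16 without KO replicate 4 and -0.47 without KO replicate 3. E2f1 had 0 counts in both young fresh KO libraries and a total of 101 in young fresh WT, at least 38.9-fold lower in KO with the floor given above, and an adjusted p of 0.132. Uhrf1 was estimated at -3.56 ± 0.88 (adjusted p = 0.21) and Cdc6 at -3.51 ± 0.96 (adjusted p = 0.275). Both young fresh KO libraries were lower than every other library of the series for these 3 genes. Orc1 stood the other way, with a total of 106 counts in young fresh KO and 1 in young fresh WT, a ratio of 91.6 (95% interval 16.1 to 3653, counting error only). With no filter on low counts edgeR called E2f1 lower in KO (adjusted p = 0.00854).

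In old fresh cells the estimates ran the other way: 34 of 42 were positive, with a median log2 difference of 0.54, and none passed, where 0.0433% of all genes did. Of the 42, 7 had an unadjusted p under 0.05 in edgeR, beside 1282 of all 11548 genes. DESeq2 called 2 of the 42, and its share over all genes is not given. The median was 0.87 without WT replicate 1, and 0.47 to 0.62 without any 1 of the other old fresh libraries. Both KO libraries lay above both WT libraries for 16 of the 42 and below for 0, against 15.6% and 15.8% of all genes. Cdt1 had 117 and 127 CPM in old fresh KO and 40.1 and 50.1 CPM in old fresh WT. It was higher in KO in both libraries, by 1.44 ± 0.35 (adjusted p = 0.241). Ccne2, a cyclin E gene, had 40.6 and 30.8 CPM in old fresh KO and 0 and 2.40 CPM in old fresh WT (log2 4.87 ± 1.44, adjusted p = 0.348). DESeq2 called these 2 genes higher in KO. Mcm6 had 676 and 789 CPM in old fresh KO and 368 and 388 CPM in old fresh WT (adjusted p = 0.371). The 2 old fresh KO libraries were not alike: replicate 4 had the higher level for most of the genes in the heat map, with Pole at 0.232 and 50.3 CPM and Chaf1a at 3.71 and 63.3 CPM. Summed megakaryocyte markers were 1514 to 2472 CPM in old fresh KO and 448 to 690 in old fresh WT, with 0 of 7 called. Summed HSC markers were 1769 to 1989 CPM in old fresh KO and 2263 to 2644 in old fresh WT, with 0 of 11 called. Myeloid progenitor markers had a median log2 difference of 2.54 with 1 of 8 called higher in KO, while their sums overlapped, at 223 to 247 CPM in old fresh KO and 58.5 to 271 in old fresh WT. The part of these markers was not tested.

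Old fresh cells were set against young fresh cells, averaged over genotypes, to see how the same genes differ with age in freshly isolated cells. Of the 42, 5 passed in the fit of 12 libraries, whose spread is shared with stimulated cells. Uhrf1, E2f1 and Cdc6 were higher and Rrm1 and Lig1 lower in old cells, where 2.83% of all genes passed as higher and 2.16% as lower. The median log2 fold change of the 42 was -0.16, beside 0.05 for all genes. It was -0.31 without old fresh KO replicate 4, -0.24 without old fresh WT replicate 1, -0.09 without young fresh KO replicate 4 and -0.04 without young fresh WT replicate 2. Rrm1, the large subunit of ribonucleotide reductase at chr7:102441695-102469771, had 79.5 and 76.8 CPM in old fresh KO and 75.5 and 86.8 in old fresh WT, against 248 and 221 in young fresh KO and 97.8 and 210.2 in young fresh WT. Every old library was lower than every young one, and Rrm1 fell by 1.26 ± 0.26 (adjusted p = 0.00981). Lig1, at chr7:13277175-13311426, had 117 and 167 CPM in old fresh KO and 137 and 137 in old fresh WT, against the young fresh values given above. It also did not overlap, and fell by 0.91 ± 0.19 (adjusted p = 0.00999). Uhrf1 had 41.7 and 90.8 CPM in old fresh KO and 75.5 and 51.9 in old fresh WT. All 4 were above the young fresh ones, by 2.85 ± 0.59 (adjusted p = 0.00987). The lowest of them, 41.7 CPM, was close to the 40.8 CPM of young fresh WT replicate 1. The gap was widest in KO, and within WT the estimate was 1.04 ± 0.76 (edgeR adjusted p = 0.539). E2f1 had 28.7 and 32.5 CPM in old fresh KO and 29.2 and 11.7 in old fresh WT (adjusted p = 0.0255), and Cdc6, at chr11:98907709-98923942, had 44.7 and 71.8 CPM in old fresh KO and 45.2 and 65.1 in old fresh WT (log2 2.43 ± 0.64, adjusted p = 0.0394). For both genes the old WT libraries overlapped the young WT ones.

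With the 8 fresh libraries alone, and with limma voom weighted by group, none of the 42 passed (7 and 6 at an unadjusted p under 0.05). Unlike the main fit, neither setting gives fresh and stimulated libraries the same spread, so the age calls depend on sharing it. In the fit of 12 libraries E2f1 lost its call without young fresh WT replicate 2 (adjusted p = 0.0580), and Cdc6 without any 1 of the 4 fresh WT or the 2 old fresh KO libraries (0.0502 to 0.114). Age also went with depth, since every old library was deeper than every young fresh one, and with mature blood cell markers, which summed to 982 to 2827 CPM in old fresh KO, 367 to 1232 in old fresh WT, 4319 to 5813 in young fresh KO and 4528 to 8656 in young fresh WT; age and depth cannot be told apart here. Of other marker lists, 2 of 7 megakaryocyte and 1 of 8 erythroid markers were called higher, and 3 of 11 HSC markers and 1 of 7 lymphoid-primed markers lower, in old cells, and the part of all these markers was not tested.

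Within KO, 4 of 42 passed (1.82% of all genes): E2f1 rose (a total of 281 counts in old fresh KO against 0 in young fresh KO, at least 39.6-fold; adjusted p = 0.0153), Uhrf1 rose by 4.66 ± 0.91 (adjusted p = 0.0157), Cdc6 rose by 4.22 ± 0.98 (adjusted p = 0.0416) and Rrm1 fell by 1.59 ± 0.37 (adjusted p = 0.0407). Within WT, 1 of 42 passed (1.78% of all genes), Lig1, which fell by 1.34 ± 0.27 (adjusted p = 0.0166), and Cdt1 had the next smallest p, at -1.23 ± 0.35 (adjusted p = 0.105). The call for Lig1 in WT was lost without any 1 of the 4 fresh WT libraries (adjusted p 0.0606 to 0.0743), and those in KO fell to 2 without old fresh KO replicate 3 and to 1 without old fresh KO replicate 4. The median log2 fold change was 0.21 within KO and -0.63 within WT, and that in KO was 0.56 without young fresh KO replicate 3 and 0.36 without old fresh KO replicate 3. With E2f1 at its bound in place of the fitted value, the median stayed 0.21 here, 0.51 for stimulation in KO and -0.14 for young fresh KO against WT. The test of the difference between these changes in KO and WT passed in edgeR for none of the 42 (0.0346% of all genes). DESeq2 called 5 of the 42, and its share over all genes is not given. An unadjusted p under 0.05 in edgeR was found for 12 of the 42 and for 1404 of all 11548 genes. E2f1 had the smallest p (adjusted p = 0.179), followed by Mcm6, with a difference of 1.41 ± 0.42 on the log2 scale between its change in KO and its change in WT (adjusted p = 0.292). Mcm6 had the values given above in old fresh cells and 425 and 249.7 CPM in young fresh KO and 331 and 591 in young fresh WT, so that old fresh KO stood highest. These comparisons share libraries: young fresh KO, in which E2f1 had no counts, enters the changes with stimulation and with age in KO, their averages, the young genotype comparison and both tests of a difference.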

How the data were processed

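The authors deposited unnormalized counts of reads for each gene symbol; the submitters' processing notes name HISAT2 2.2.1, HTSeq 0.9.1 and the build mm10. Libraries were QuantSeq 3′ FWD, per the labels' protocols, and the annotation, strand setting and filters are not stated. Groups were tested with edgeR 4.0.16 in R 4.3.3 (TMM, quasi-likelihood test, Benjamini-Hochberg adjustment over all genes tested, threshold 0.05) after filterByExpr (minimum count 10, minimum total 15). Main contrasts used a fit of 6 groups over 12 libraries (11548 genes, 6 residual and 8.68 prior degrees of freedom). This fit shares the spread of a gene over all 6 groups. Estimated group by group, the common dispersion, a measure of spread beyond counting error, was 0.039 in stimulated KO and 0.033 in stimulated WT. It was 1.17 in old fresh KO, 1.22 in old fresh WT, 1.22 in young fresh KO and 0.895 in young fresh WT. KO against WT in stimulated cells used the 4 stimulated libraries (10494 genes, 2 residual and 13.0 prior degrees of freedom), since these varied less. The SE of a log2 fold change was worked back from the test, as its size over the square root of the quasi-likelihood F. Scores used a prior count of 2.

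The 42 genes and the other lists were chosen with earlier results of these data known. Values per library were given for the 2 genes of each role with the smallest p for stimulation, the 6 for stimulated KO against WT, the 4 for age, the 2 of each other contrast, the largest decrease with stimulation, and genes at 0 in a whole group; genes beyond that rule (Pole, Mcm3 and Cdc6 or Orc1 in young KO against WT, for instance) were added after their values were seen. Alternatives were RLE scaling, no filter, DESeq2 1.42.0, limma 3.58.1 voom weighted by group, only the libraries of a contrast, a block for the replicate number, and each library left out in turn. Simulated data served only as a check of the code with wide limits, and do not show whether single calls are right. Depth sets the floor used for low genes: 3 counts over young fresh KO equal 0.775 CPM, and bounds and intervals cover counting error only. The number of genes with counts did not follow depth. It was 9548 to 10231 in the old fresh libraries, the deepest, and 13163 to 13450 in the stimulated ones. Positions came from RefSeq on GRCm38.p6, the assembly of mm10.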

Additional observations from a re-analysis of the deposited data

How the results depend on the processing

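No result changed direction past its threshold. RLE scaling kept every count of called genes within 1.5 times. The counts of calls by the alternatives, here and above, are among the 42 only. The matching counts over all genes are not given, so a larger count does not set the 42 apart from other genes. With no filter on low counts, 2 of the 42 genes passed for stimulation in WT, 4 for stimulation in KO, 2 for stimulated KO against WT, 1 for young fresh KO against WT, 2 for age in WT and 1 for the difference of the age change between genotypes. DESeq2 called 8 for stimulation averaged over genotypes, 2 in WT and 4 in KO, 5 for young fresh and 2 for old fresh KO against WT, 5 for age in WT, and 1 and 5 for the differences in the change with stimulation and with age. Limma voom with a weight per group called 2 for stimulation in WT, 3 for stimulated KO against WT, and 0 for age averaged, in WT and in KO. The libraries of a contrast alone gave 0 for stimulation in KO and 0 for the 3 age contrasts. Deviations of same-numbered libraries were not correlated (-0.0066 to 0.0118). With 2 libraries a group and a wide spread in fresh cells, this cannot exclude that replicate numbers pair the samples. With a replicate block 1 gene passed for stimulation in WT, 4 in KO and 2 for age in WT, and KO and WT share no numbers. Leaving out each library in turn gave 2 to 4 calls for stimulation averaged, 0 to 1 in WT and 0 to 1 in KO, 0 to 3 for stimulated KO against WT, 4 to 6 for age averaged, 0 to 1 in WT and 1 to 4 in KO, and 0 for the other 4 contrasts. The cause was not tested. With 2 libraries a group and fresh replicates that differ widely, changes in fresh cells need to be large to pass.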

Other observations

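Cks2, a small subunit that binds cyclin-dependent kinases, rose with stimulation (log2 3.02 ± 0.60, edgeR adjusted p = 0.0117), averaging 11.1 ± 0.157 CPM in stimulated KO and 13.1 ± 0.774 in stimulated WT, against 0.766 ± 1.08 in young fresh KO and 2.68 ± 0.246 in young fresh WT (SD, n = 2 each). In old fresh cells it averaged 191 ± 62.9 CPM in KO and 164 ± 77.7 CPM in WT, far above all stimulated libraries.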
